A study of Mus musculus with 8 samples.

Results

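The pentose phosphate pathway enzymes were taken as 8 mouse genes, and a gene was measured where at least 1 row of the array table carried its symbol and no other. This held for 7 of the 8, Pgls, Pgd, H6pd, Rpia, Rpe, Tkt and Taldo1, which together had 99 of the 307991 rows that name 1 gene. No row names G6pdx in the annotation used here, and its expression was not analysed here. The tested cells were primary mouse embryonic fibroblasts, connective tissue cells of the embryo, that spent 24 h in 1% oxygen (hypoxia, 4 arrays). The other 4 arrays came from the same kind of cells left in atmospheric oxygen for that time (normoxia). The cells of both groups came from a commercial supplier, no transgene or drug is named for either, and strain and embryo stage were not given in the sources used here. Both groups grew on 100 mm dishes in DMEM with 4.5 g/l glucose and 10% FBS, at 37 °C and 5% CO2. The arrays (Affymetrix Mouse Exon 1.0 ST) carry several rows per gene, each summarizing probes directed at 1 stretch of it, mostly within a single exon. Values below are log2 intensity. The value of a gene is the mean over its rows whose level, averaged over all 8 arrays, reached the median of the table (2.35).

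The pathway branches off glycolysis at glucose 6-phosphate. Its oxidative branch yields NADPH, the reducing power for lipid synthesis and for keeping glutathione reduced, and ends in ribulose 5-phosphate. The non-oxidative branch turns ribulose 5-phosphate reversibly into ribose 5-phosphate, the sugar of nucleotides, and into fructose 6-phosphate and glyceraldehyde 3-phosphate, which are glycolytic intermediates. Oxygen shortage is known to raise transcription of glycolytic genes through hypoxia-inducible factors, which bind a short core motif near their target genes, in the form ACGTG or, with G first, GCGTG.

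Promoter sequences are shown for the enzymes that join the pathway to glycolysis, Tkt and Taldo1, because 7 glycolytic genes rose in the same cells. They are RefSeq windows of GRCm38.p6, 250 bases before to 50 after a transcript start, written 5′ to 3′ on the strand of the gene. The Tkt window lies at chr14:30548881-30549180 (plus strand) and the Taldo1 window at chr7:141391910-141392209 (plus strand).
Tkt: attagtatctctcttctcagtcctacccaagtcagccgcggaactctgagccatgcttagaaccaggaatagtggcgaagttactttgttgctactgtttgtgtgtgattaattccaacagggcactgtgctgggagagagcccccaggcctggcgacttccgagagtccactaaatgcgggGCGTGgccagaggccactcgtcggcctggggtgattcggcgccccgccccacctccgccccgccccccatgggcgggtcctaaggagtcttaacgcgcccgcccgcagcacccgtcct
Taldo1: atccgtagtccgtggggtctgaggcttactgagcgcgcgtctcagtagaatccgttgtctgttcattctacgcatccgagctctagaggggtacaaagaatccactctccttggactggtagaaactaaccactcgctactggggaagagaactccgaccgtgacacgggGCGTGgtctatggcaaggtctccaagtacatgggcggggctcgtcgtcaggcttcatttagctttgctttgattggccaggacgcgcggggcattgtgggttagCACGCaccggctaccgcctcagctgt
Capitals mark GCGTG or its reverse complement CACGC, and neither window holds the other motifs searched on both strands. These were ACGTG, its palindromic extension CACGTG, which contains it, and the antioxidant response element core TGACNNNGC, while the search for GCGTG was added after the data were seen. ACGTG lay in the windows of 0 of the 7 measured enzymes, against 19.6% of all 32851 windows in the table and 22.8% of the 18236 windows of genes tested. Over all 8 enzymes it lay in 1, G6pdx, whose expression was not measured. GCGTG lay in 5 of the 7, Pgls, Pgd, Rpia, Tkt and Taldo1, and in 6 of the 8 with G6pdx, against 32.4% of all windows and 43.1% of those of genes tested. TGACNNNGC lay in 1 of the 7, Pgd, in 2 of the 8 with G6pdx, and in 12.4% of all windows. Pgd has 2 annotated starts, and the window of the upstream one held 0 matches of TGACNNNGC. The match begins just past the downstream start, so it lies in transcribed sequence and not before a start. It is shown at chr4:149166056-149166094 (minus strand), with the match in capitals and 15 bases on each side.
Pgd: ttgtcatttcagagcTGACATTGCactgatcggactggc
Among glycolytic enzymes that share an intermediate with the pathway, ACGTG lay in the windows of 6 of 11 and GCGTG in those of 5. A gene was counted if any of its windows held the motif, whereas the shares above are of windows. Per window, ACGTG lay in 8 of 17 and GCGTG in 6 of 17, some of which overlap. For the 8 pathway enzymes these were 1 of 9 and 6 of 9. Of the 7 that rose, GCGTG lay in 3, Pfkl, Pfkp and Gapdh. ACGTG also lay in 3 of them, Hk2, Aldoa and Gapdh, shown here with ACGTG or its reverse complement CACGT in capitals, at chr6:82774487-82774521, chr7:126799361-126799395 and chr6:125165724-125165746 (all minus strand).
Hk2: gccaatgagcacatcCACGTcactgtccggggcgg
Aldoa: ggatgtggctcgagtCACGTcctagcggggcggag
Gapdh: gcggctttacgggtgCACGTagc
A match describes these letters alone, and a window without one says nothing of a factor.

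None of the 7 measured enzymes passed the test across all genes. The test was limma on gene values, two-sided, with Benjamini-Hochberg adjustment over 18848 genes and a threshold of 0.05. It called 100 genes higher in hypoxia (0.531%) and 150 lower (0.796%), and beside shares this small 0 of 7 is no result about the enzymes. At an unadjusted limma p under 0.05, the enzymes gave 0 higher and 1 lower, against 3.02% of genes higher and 20.4% lower. Of the 7, 6 had a negative log2 fold change of hypoxia over normoxia, and so did 75.7% of all genes, though Pgls and Rpia turned positive with cyclic loess. Their median was -0.25, and the median of all genes was -0.19. Gene values over rows that passed the filter were thus mostly lower in hypoxia. Array medians over all rows lay between 2.38 and 2.44. The normalization of the deposited values is not given, so these medians cannot tell whether the whole table shifted, which was not tested. Without the filter on dim rows the median of all genes was -0.05. The fold change of each enzyme is also given below relative to the median of all genes, which depends on that filter. In bulk samples fewer cells of a type and less RNA per cell cannot be told apart. Nothing in the sources ties single arrays to separate cultures beyond the methods, which call the replicates biological, so a p-value measures the spread between these arrays.

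**Figure D1:**
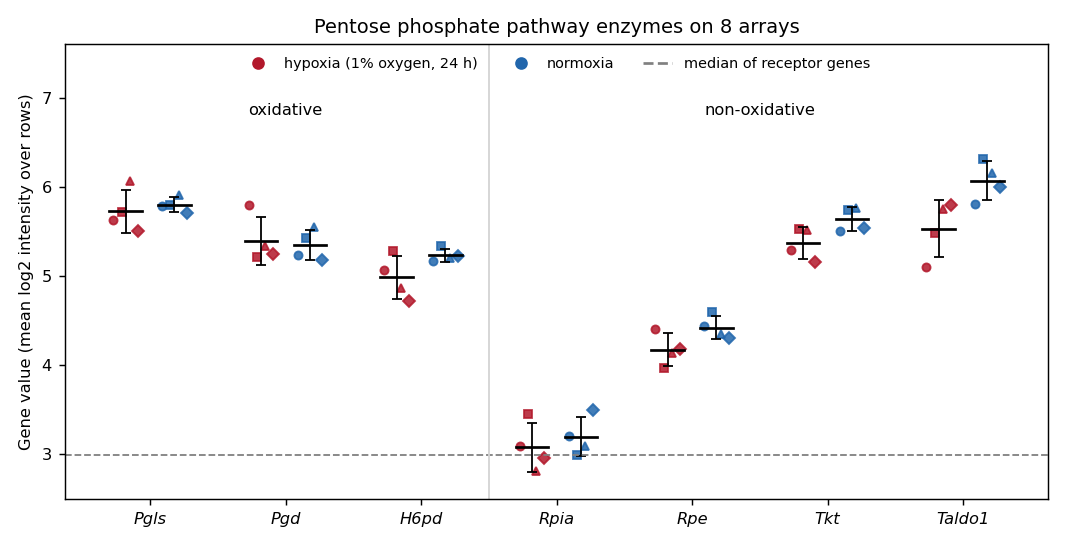
Gene values (mean log2 intensity over rows) of the 7 measured enzymes on each array, hypoxia in red left of normoxia in blue, with the marker shape giving the replicate number, bars the mean and SD (n = 4 each) and the dashed line the median of 315 receptor genes. Only Taldo1 has all hypoxia arrays below all normoxia arrays, and levels of different genes cannot be set against each other.

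In the oxidative branch the glucose 6-phosphate dehydrogenase step itself was not measured, and the enzymes after it, Pgls and Pgd, showed differences near 0. Pgls, the lactonase that opens the ring of 6-phosphogluconolactone, stood at 5.62, 5.72, 6.06 and 5.50 in hypoxia and at 5.78, 5.80, 5.91 and 5.70 in normoxia. Hypoxia array 3 lay above every normoxia array, hypoxia array 2 lay inside the normoxia range and hypoxia arrays 1 and 4 lay below it. The log2 fold change was -0.08 ± 0.14 (SE, 95% interval -0.40 to 0.25, limma adjusted p = 0.771), and it was 0.12 above the median of all genes. Pgd, which makes ribulose 5-phosphate and NADPH from 6-phosphogluconate, had 5.79, 5.21, 5.33 and 5.25 in hypoxia against 5.23, 5.42, 5.55 and 5.18 in normoxia. A single array, hypoxia 1, stood above all others. The log2 fold change of 0.05 ± 0.16 (95% interval -0.32 to 0.42, limma adjusted p = 0.876) was the only positive one among the 7 and 0.24 above the median of all genes, and it was -0.08 without hypoxia array 1 and -0.0072 without normoxia array 4. The intervals thus leave room for a change of either sign in both enzymes.

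H6pd carries out the same opening steps inside the endoplasmic reticulum, on its own pool of glucose 6-phosphate, and supplies NADPH there. Its values were 5.07, 5.28, 4.86 and 4.72 in hypoxia and 5.17, 5.33, 5.20 and 5.22 in normoxia. Hypoxia array 2 lay inside the normoxia range and the other hypoxia arrays below it. The SD was 0.24 in hypoxia and 0.07 in normoxia, and the log2 fold change was -0.25 ± 0.14 (95% interval -0.57 to 0.07, limma adjusted p = 0.320). It was 0.06 below the median of all genes, which itself was -0.19.

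All 4 fold changes of the non-oxidative branch were negative, although that of Rpia turned with cyclic loess or another filter, and only Taldo1 had groups that did not overlap. Rpia, the isomerase that makes ribose 5-phosphate, was close to the level of genes that fibroblasts are not known to use. Its values were 3.10, 3.45, 2.82 and 2.95 in hypoxia and 3.21, 3.0, 3.09 and 3.50 in normoxia, where 315 odorant, vomeronasal and taste receptor genes had a median level of 3.0. The group means were 0.08 above that median in hypoxia and 0.20 above it in normoxia, and the log2 fold change of -0.12 ± 0.17 (95% interval -0.51 to 0.27, limma adjusted p = 0.703) is read with that in mind. It was 0.07 above the median of all genes. With rows at or above the 75th percentile of the table alone, 2 rows of Rpia were left and the value was 0.46.

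Rpe, the epimerase that makes xylulose 5-phosphate, stood at 4.41, 3.96, 4.14 and 4.18 in hypoxia and at 4.44, 4.59, 4.35 and 4.30 in normoxia. Hypoxia array 1 lay within the normoxia range and the other hypoxia arrays below it, and the log2 fold change was -0.25 ± 0.13 (95% interval -0.55 to 0.05, limma adjusted p = 0.287), or 0.06 below the median of all genes. Tkt, the transketolase that moves carbon pairs between sugar phosphates and needs thiamine, had 5.29, 5.52, 5.52 and 5.15 in hypoxia against 5.51, 5.74, 5.76 and 5.54 in normoxia. Hypoxia arrays 2 and 3 lay just above the lowest normoxia array, so the groups overlapped. Its log2 fold change was -0.27 ± 0.13 (95% interval -0.57 to 0.04, limma adjusted p = 0.262), which was 0.07 below the median of all genes.

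Taldo1, the transaldolase that joins sedoheptulose 7-phosphate and glyceraldehyde 3-phosphate into fructose 6-phosphate and erythrose 4-phosphate, had the lowest fold change of the 7. It stood at 5.10, 5.48, 5.75 and 5.79 in hypoxia and at 5.80, 6.31, 6.15 and 6.0 in normoxia. Every hypoxia array lay below every normoxia array, by 0.01 between the nearest pair, a pattern found in 14.5% of all genes. The opposite order was found in 0 of the 7 enzymes and in 1.87% of all genes. The log2 fold change was -0.54 ± 0.18 (95% interval -0.96 to -0.12), a level of 0.688 times that of normoxia, with a limma p of 0.0170 before and 0.137 after adjustment. The exact two-sided permutation test of Taldo1 alone gave p = 0.0286, the smallest that 4 against 4 arrays allow. The difference was 0.35 below the median of all genes and 0.42 below the median of the brightest of 10 level groups, where Taldo1 belongs. A lower fold change was found for 9.16% of all genes. Without hypoxia array 1, the lowest, the value was -0.40 with a limma adjusted p of 0.193. Over the alternatives tried the limma adjusted p of Taldo1 ran from 0.0942 to 0.399 and its log2 fold change from -0.63 to -0.40. The exact tests of the other enzymes gave two-sided p = 0.0857 for Rpe and for Tkt, 0.114 for H6pd, 0.486 for Rpia, 0.571 for Pgls and 0.771 for Pgd.

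Set against the median of all genes, Tkt and Taldo1 were below it in 19 of 19 alternatives on a log2 scale, H6pd in 18 and Rpe in 17, whereas Rpia was below it in 2, Pgls in 1 and Pgd in 0. For Tkt this distance went down to less than 0.01, while for Taldo1 it stayed between 0.19 and 0.50. These alternatives share the same arrays.

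The enzymes were then set side by side by branch. The mean of Pgls and Pgd was 5.56 ± 0.17 in hypoxia and 5.57 ± 0.13 in normoxia (SD, n = 4 each), a difference of -0.01. The mean of Rpia, Rpe, Tkt and Taldo1 was 4.47, 4.60, 4.55 and 4.52 in hypoxia against 4.74, 4.91, 4.84 and 4.83 in normoxia, with no overlap and a difference of -0.29. All hypoxia arrays lay below all normoxia arrays in 14.5% of single genes, and the share among means of 4 genes was not counted. The median of all genes was -0.19. Of these 4 enzymes only Taldo1, at -0.54, was far below that median, with Tkt at -0.27, Rpe at -0.25 and Rpia at -0.12. The mean over 4 enzymes varied less between arrays than each of them did. Within groups, correlations between pairs of them ran from -0.56 (Rpia and Rpe) to 0.29 (Tkt and Taldo1). The SD of the branch mean was 0.06 in hypoxia and 0.07 in normoxia, whereas among its enzymes the smallest SD was 0.18 in hypoxia and 0.13 in normoxia.

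The oxidative mean minus the non-oxidative mean was 1.24, 0.86, 1.14 and 0.85 in hypoxia and 0.77, 0.70, 0.89 and 0.61 in normoxia. Normoxia array 3 lay above hypoxia arrays 2 and 4, so the groups overlapped. The difference averaged 1.02 ± 0.20 in hypoxia and 0.74 ± 0.12 in normoxia (SD, n = 4 each), 0.28 apart, and 0.20 apart with H6pd counted in the oxidative branch. With rows at or above the 75th percentile alone it was 0.08. The branch values are descriptions of a chosen list and carry no test. They cannot include G6pdx, and no term for a difference between enzymes was tested.

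**Figure D2:**
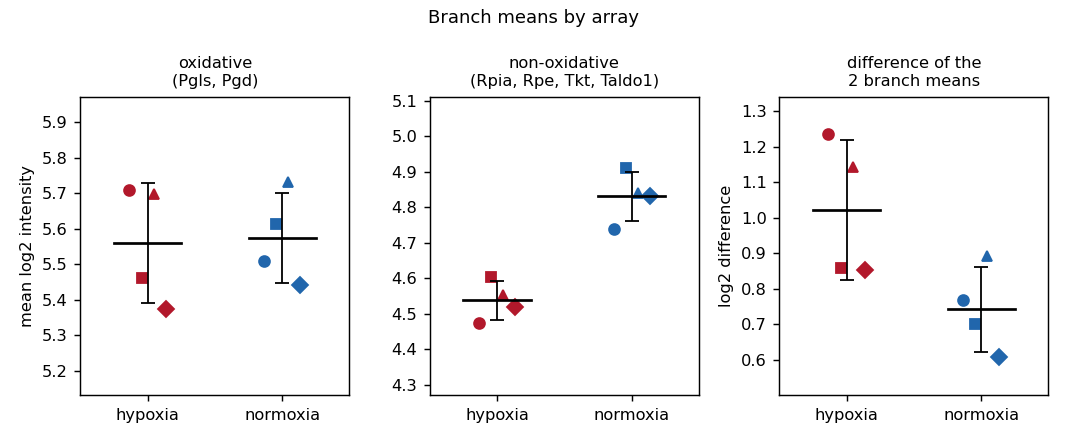
Mean log2 intensity of the oxidative enzymes (Pgls, Pgd) and of the non-oxidative enzymes (Rpia, Rpe, Tkt, Taldo1) and the log2 difference of both means on each array, hypoxia in red left of normoxia in blue, with mean and SD (n = 4 each) and axes of equal length that start at different values. The non-oxidative means of the hypoxia arrays (4.47 to 4.60) lie below those of the normoxia arrays (4.74 to 4.91), while the oxidative means overlap. How often means of 4 genes separate in this way was not counted. The median log2 fold change of all genes, not drawn, was -0.19.

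Single rows show how alike the parts of a transcript were. Of the 99 rows, 86 reached the table median, a filter on the mean of all arrays. The limma fit over 191376 rows called 0 of the 86, against 0.146% of rows higher and 0.0334% lower. Of the 86 rows, 62 were negative, beside 65.5% of all rows, and only in Pgd (8 of 17) and Rpia (4 of 8) were rows about evenly split. Their median was -0.23 and they ran from -1.58 to 1.0. The lowest, of Rpia, averaged 2.05 in hypoxia and the highest, of Rpe, averaged 2.28 in normoxia, both below the table median. Each of these passed the filter only through its other group.

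Taldo1 was the enzyme whose rows all pointed one way, with 11 of 11 negative, from -1.0 to -0.01. In 4 of them, all hypoxia arrays were below all normoxia arrays, a separation found in 6.75% of all rows. The opposite separation was found in 0 of the 86 rows and in 2.24% of all rows. The row with the largest of these differences had 6.24, 5.86, 6.43 and 5.76 in hypoxia and 6.88, 7.31, 6.95 and 6.60 in normoxia (-0.86, limma adjusted p = 0.244). The brightest Taldo1 row stood at 6.94, 7.69, 7.89 and 7.83 in hypoxia and at 7.89, 7.98, 7.70 and 8.36 in normoxia, which overlapped (-0.39, limma adjusted p = 0.570).

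Rows of the other enzymes were mixed. Tkt had 12 of 17 rows negative, and 2 of them separated the groups. The Tkt row with the lowest difference (-1.20, limma adjusted p = 0.501) rested on hypoxia arrays 1 and 4, at 2.74 and 4.45, while the other 6 arrays stood between 5.90 and 6.69. H6pd had 12 of 15 rows negative and Rpe 9 of 11. Pgls had 6 of 7 negative, and its one positive row was its dimmest, with a level of 2.36.

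Within Rpia the rows went furthest apart. One row had 2.17, 2.19, 1.58 and 2.27 in hypoxia against 3.88, 3.45, 3.20 and 3.98 in normoxia, a difference of -1.58 with a limma adjusted p of 0.0831, the lowest among the 86 rows. Another had 2.69, 4.07, 4.0 and 3.99 in hypoxia against 2.36, 2.87, 2.71 and 2.92 in normoxia, a difference of 0.97 (limma adjusted p = 0.286). All 8 Rpia rows had levels between 2.39 and 4.18, where intensity is close to that of the receptor genes. The place of a row in the transcript was not given in the files used here, so rows could not be assigned to exons.

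The study ran a rank-sum test on single probes ranked within each array, and here the exact one-sided form at 0.05 was run on the log2 values of rows. By this test 8 of the 86 rows were lower in hypoxia (background 11.1%) and 2 were higher (background 3.62%). The 8 were 4 of Taldo1, 2 of Tkt, 1 of H6pd and 1 of Rpia. The 2 higher rows were 1 of Pgls and 1 of Pgd, and the Pgd row stood at 6.24, 5.94, 5.75 and 6.04 in hypoxia and at 5.68, 5.38, 5.79 and 5.48 in normoxia. The Pgls row averaged 1.96 in normoxia and the Rpia row 2.05 in hypoxia, below the table median of 2.35. Also just below it in hypoxia was 1 of the Tkt rows. These passed the filter only through the group where they were higher. As shares of the 86, neither count exceeded the share over all rows. With ranks within each array in place of log2 values, 7 of the 86 were lower and 2 higher.

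**Figure D3:**
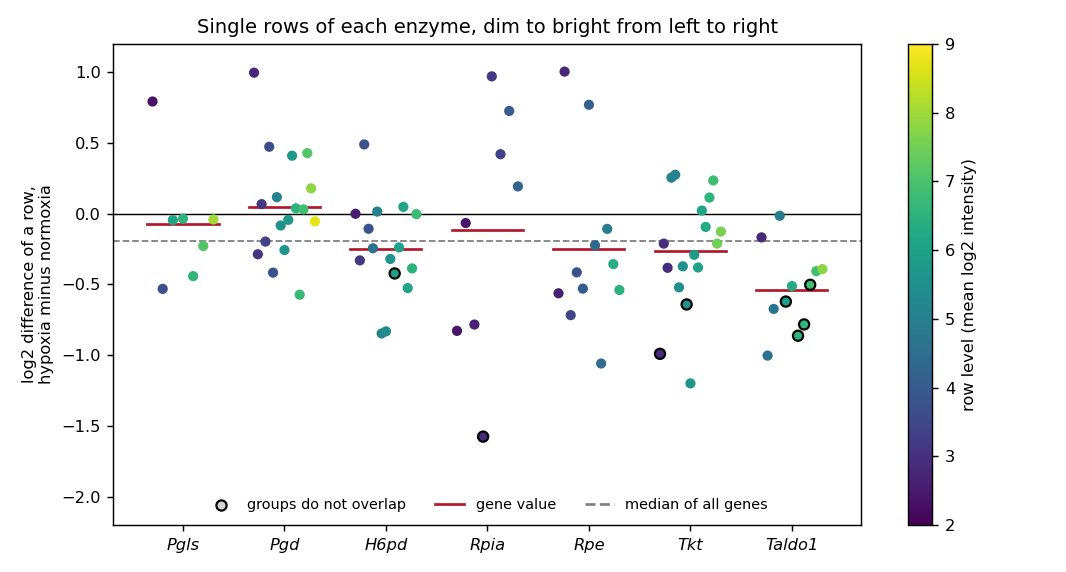
Difference of each of the 86 rows (hypoxia minus normoxia, log2), ordered within each enzyme by level and coloured by it, with black rings where the groups do not overlap, red lines at the fold change of the gene value and a dashed line at the median of all genes. All 11 Taldo1 rows lie below 0, while the Rpia rows spread from -1.58 to 0.97. The lowest Rpia row passed the filter only through its normoxia arrays.

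The pattern of Tkt over the 8 arrays was most like those of Dbc1 (r = 0.99), Tbl1x (r = 0.98) and Atxn10 (r = 0.98) among 14847 genes with at least 3 rows. These Pearson correlations over 8 arrays include the difference between the groups and any property shared by an array, and serve as a description. None of the 3 was called (limma adjusted p = 0.312, 0.184 and 0.371).

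The pathway shares its intermediates with upper glycolysis, and there the same arrays showed increases. Of the 11 enzymes listed for the steps between glucose and glyceraldehyde 3-phosphate with its next step, 7 were higher in hypoxia and 0 lower, with a median log2 fold change of 0.87. Tpi1, which makes glyceraldehyde 3-phosphate, a substrate of Tkt and Taldo1, from dihydroxyacetone phosphate, averaged 8.33 ± 0.07 in hypoxia and 6.74 ± 0.14 in normoxia (SD, n = 4 each), a log2 fold change of 1.59 ± 0.12 (SE, limma adjusted p = 0.000265). Pfkl, a phosphofructokinase that commits fructose 6-phosphate to glycolysis, rose by 1.55 ± 0.13 (limma adjusted p = 0.000562). Gpi1, which turns glucose 6-phosphate, the entry point of the pathway, into fructose 6-phosphate, rose by 1.12 ± 0.12 (limma adjusted p = 0.00308). Pfkp, another phosphofructokinase, rose by 1.21 ± 0.14 (limma adjusted p = 0.00524).

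The others that rose were Gapdh, the hexokinase Hk2 and the aldolase Aldoa, by 0.87, 1.13 and 0.65, and they are named for their count and for the promoter stretches above. When each of the 8 arrays was left out in turn, Aldoa was called 0 times (limma adjusted p = 0.0594 to 0.113), Hk2 3 times (limma adjusted p = 0.0280 to 0.104) and Gapdh 5 times (limma adjusted p = 0.0136 to 0.0777). Uncalled were the hexokinase Hk1 at 0.66 ± 0.14 (limma adjusted p = 0.0541) and the muscle-type phosphofructokinase Pfkm at -0.18 ± 0.11 (limma adjusted p = 0.332), together with the fructose bisphosphatases Fbp1 and Fbp2. Over 19 alternatives between 2 and 8 of the 11 were called, with 4 called without normoxia array 1 and 4 without normoxia array 4. Tpi1 and Pfkl were called in 19 of 19. The intervals of the pathway enzymes, whose upper ends reached 0.42 at most, lay below those of Tpi1, Pfkl, Gpi1, Pfkp, Hk2 and Gapdh, though the difference between the lists was not tested.

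**Figure D4:**
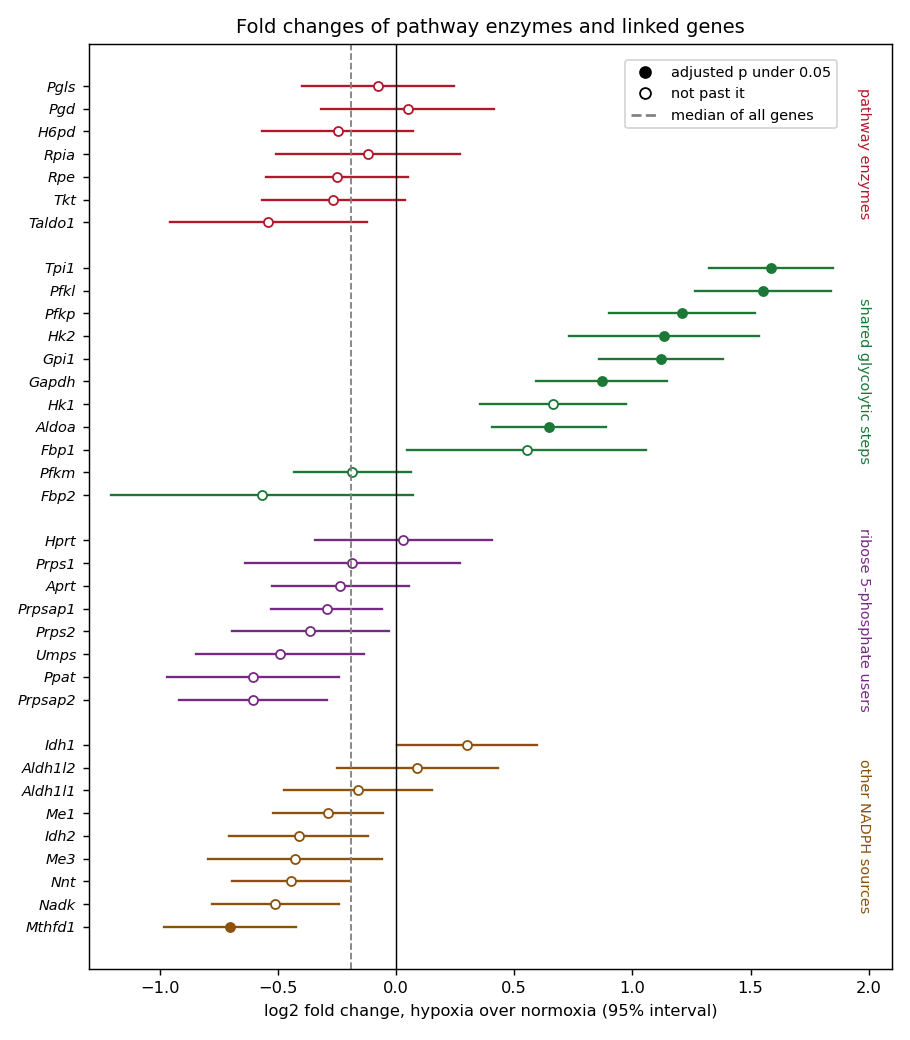
Log2 fold change (hypoxia over normoxia) with 95% interval from limma for the 7 pathway enzymes and for genes that share their intermediates or products, filled where the adjusted p is under 0.05 and with a dashed line at the median of all genes (-0.19). The glycolytic genes reach 1.59, whereas the pathway enzymes lie between -0.54 and 0.05.

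The users of the pathway products were counted next, and beside the 0.531% of all genes called higher and the 0.796% called lower, a count of 0 in lists this short is no result about them. Of the enzymes that take up ribose 5-phosphate or the phosphoribosyl pyrophosphate made from it, 8 of 9 were tested and 0 were called, with a median log2 fold change of -0.33. At an unadjusted limma p under 0.05, 5 of the 8 were lower, beside 20.4% of all genes. The brightest, Hprt and Aprt, which salvage purine bases, had log2 fold changes of 0.03 ± 0.16 (limma adjusted p = 0.923) and -0.24 ± 0.13 (limma adjusted p = 0.295). Of the NADPH users, 7 of 9 were tested and 0 called, with a median of -0.34, and 5 of the 7 were lower at an unadjusted limma p under 0.05. Fasn, the fatty acid synthase, had -0.35 ± 0.13 (limma adjusted p = 0.167) and Por, which passes electrons from NADPH to cytochromes P450, -0.34 ± 0.14 (limma adjusted p = 0.175).

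Among 9 tested genes of 10 for other sources of NADPH, 0 were higher and 1 was lower, with a median of -0.41. At an unadjusted limma p under 0.05, 6 of the 9 were lower and 1 was higher, beside 20.4% and 3.02% of all genes. The gene called lower after adjustment was Mthfd1, the cytosolic folate enzyme with an NADP-dependent dehydrogenase step. Mthfd1 averaged 3.76 ± 0.15 in hypoxia and 4.46 ± 0.11 in normoxia (SD, n = 4 each). Its log2 fold change was -0.70 ± 0.12 (SE, limma adjusted p = 0.0390), but leaving out any 1 of the 8 arrays took the limma adjusted p to between 0.0624 and 0.137, and 6 of 19 alternatives called it. The malic enzyme Me1 had -0.29 ± 0.10 (limma adjusted p = 0.147), with every hypoxia array below every normoxia array. That order was found in 6 of the 9 and in 14.5% of all genes. The isocitrate dehydrogenase Idh1 had 0.30 ± 0.13 (limma adjusted p = 0.209).

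The lists closest to the pathway were 5 tested of 8 related sugar enzymes (median -0.30), 4 of 4 genes for glucose 6-phosphate in the endoplasmic reticulum (median -0.39) and 5 tested of 6 regulators (median -0.20). Their count of called genes was 0, which beside 0.531% and 0.796% of all genes is no result about 14 genes. At an unadjusted limma p under 0.05 each of these lists had 0 higher and 1 lower. Of the related sugar enzymes, the brightest were Idnk, a gluconate kinase whose product enters the pathway, at -0.30 ± 0.17, and Dera, the deoxyribose phosphate aldolase, at -0.49 ± 0.15 (limma adjusted p = 0.306 and 0.117). In the endoplasmic reticulum list, G6pc3, a glucose 6-phosphatase, had -0.25 ± 0.14 (limma adjusted p = 0.328). Nfe2l2, the factor that binds antioxidant response elements, had 0.22 ± 0.12 and Sirt2, a deacetylase, -0.20 ± 0.11 (limma adjusted p = 0.291 and 0.314).

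As a check of the labels, 7 of 8 genes known to rise when oxygen is short were called higher and 0 lower, with a median log2 fold change of 2.07. This list too was chosen with earlier results of these data known, so the check is not independent of them. Bnip3, a mitochondrial autophagy gene, stood at 8.73 ± 0.10 in hypoxia and 5.33 ± 0.29 in normoxia (SD, n = 4 each). All 11 fibroblast markers were above the receptor median and 0 were called, with summed intensity of 3004 to 3092 in hypoxia and 3143 to 3229 in normoxia. Being above that median does not tell cell types apart, since 16569 of 18848 genes were above it. So were 7 of 7 epithelial, 5 of 6 endothelial, 7 of 7 blood and 6 of 6 neural markers, and 7 of 7 of muscle, fat and cartilage. Of 33 markers of epithelial, endothelial, blood, neural, muscle, fat and cartilage cells, 1 was called, the keratin Krt19, which was 1.48 higher in hypoxia (called in 19 of 19 alternatives). The summed intensity of the 7 epithelial markers was 94.7 to 121 in hypoxia and 85.8 to 121 in normoxia. Their levels ran from Epcam, at 2.95 in hypoxia and 3.32 in normoxia, to Cldn4, which rests on 1 row, at 5.06 and 4.83. The part of this in the pathway values was not tested. Array medians lay between 2.38 and 2.44, while the interquartile ranges of the arrays were narrower in hypoxia (2.51 to 2.61) than in normoxia (2.77 to 2.90). Over 10 level groups the median log2 fold change ran from -0.05 in the dimmest to -0.24 in the one that holds Rpe, and the part of the narrower spread in the pathway values was not tested beyond the alternative normalizations.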

How the data were processed

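From each of 8 samples, 50 ng of total RNA was amplified and its biotin-labelled cDNA hybridised to an Affymetrix exon array. The authors deposited linear intensity for 641130 rows. Their background correction, array normalization and probe summary are not given in the sources used here, and no scan date or other batch is either. The methods give more replicates per group than the labels, which were followed. Intensity was taken as log2 without a pseudocount, and columns of all 8 arrays were used. Rows were named through the platform annotation (307991 name 1 gene, 7047 several, 326092 none here), with 3985 of 21842 symbols updated through RefSeq synonyms. Genes tested had a median of 7 rows, and 2305 rested on 1 row.

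Hypoxia was set against normoxia in limma (version 3.58.1, R version 4.3.3) without covariates, with Benjamini-Hochberg adjustment and a threshold of 0.05, and the scripts were tested on simulated data. Members and lists were chosen with earlier results of these data known. From each list up to 4 called genes, by smallest p, and up to 2 of the brightest uncalled genes are named, while marker lists are given mainly as counts. Hk2, Aldoa, Gapdh, Fbp1, Fbp2 and Epcam were named after their values were seen or to complete a count. Motifs were searched with Python 3.11.15 and figures drawn with matplotlib 3.10.9. Alternatives covered normalization, scale, filter, gene summary, test, replicate block and leaving out each array. The number of arrays limits precision. No pairing of arrays by replicate number was seen (correlations of deviations from -0.12 to 0.07), though this cannot exclude one.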

Additional observations from a re-analysis of the deposited data

How the results depend on the processing

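No alternative called a pathway enzyme or a pathway row, in any of the 20 settings run for the genes or those run for rows. The counts over all genes moved far more. Against 150 genes lower, there were 53 with quantile normalization, 34 with cyclic loess, 18 with relative ranks, 333 with log2(value + 8), 259 without the filter, 234 with rows at or above the 75th percentile, 25 with the median of rows, 417 with an intensity trend and robust eBayes, and 257 with array weights. Against 100 genes higher, there were 40 with relative ranks, 157 with log2(value + 8) and 217 without the filter. Beside the main 100 higher and 150 lower, the calls were 126 higher and 53 lower with quantile normalization and 146 higher and 34 lower with cyclic loess. Leaving out 1 array gave 54 to 74 genes higher and 7 to 51 lower, and 94 to 162 rows higher and 1 to 63 lower. Rows lower, 64 in the main setting, were 39 with cyclic loess, 17 with relative ranks, 38 without the filter and 126 with rows at or above the 75th percentile, and rows higher, 279 in the main setting, were 48 with relative ranks.

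With the replicate block, 34 genes were higher and 3 lower, with 0 rows higher and 0 lower, and 0 pathway enzymes were called. The values showed no pairing by number, since only replicate 1 correlated best with its own number. Such correlations cannot exclude a pairing, and the sources do not say how the numbers were given.

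The sign turned for enzymes near 0. Pgls was 0.029 with cyclic loess and 0.98 with relative ranks (on their scale of 0 to 100). Rpia was 0.011 with cyclic loess, 0.023 without the filter and 0.46 with rows at or above the 75th percentile. Pgd ran from -0.084 to 0.12 when 1 array was left out, at -0.084 without hypoxia array 1 and -0.0072 without normoxia array 4. The branch difference of 0.28 was 0.085 with rows at or above the 75th percentile, where Rpia rests on 2 rows, 0.18 with log2(value + 8), and 0.21 to 0.34 when 1 array was left out. The exact permutation test of Taldo1 alone (p = 0.0286, not adjusted) was under 0.05, and so was its limma p before adjustment (0.0170). After adjustment over all genes its limma p was 0.137. The exact test gives that same p to every gene whose groups do not overlap, which were 14.5% of genes lower and 1.87% higher in hypoxia. The causes were not tested. Precision is limited by 4 arrays per group, by the nearness of dim rows to background, and by 1 value per row with no probe-level data used here.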
